A study of Mus musculus with 6 samples.

Results

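Voltage-gated sodium and calcium channel genes were read in the medial prefrontal cortex of mice on a diet labelled ZnR and of control mice. The genes are those whose symbol is Scn, a number and a or b, or starts with Cacna, Cacnb or Cacng. Scn4b, Cacng2, Cacng3 and Cacng8 were left out. Each was read on a microarray by 1 or more probe sets, which are groups of short probes against one transcript. By this rule 31 genes with 78 probe sets were found among the 45101 probe sets of the table. Only probe sets bright enough to compare were tested, with a log2 expression of more than 4 in 3 or more of the 6 mice. That left 52 of the 78, from 23 genes. Of these, 1 probe set of Scn9a (1457819_at) exceeded 4 in all 3 ZnR mice and in 1 control mouse, so it was kept through the diet in which it was higher.

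The study held 3 mice with the diet label ZnR (mice 3, 7 and 11) and 3 with the diet label Ctrl (mice 1, 5 and 9, Ctl in their titles), with 1 Affymetrix Mouse430_2 array per mouse. All were males of the inbred strain 129S1/SvImJ, 8 to 10 weeks old, and all had gone through fear extinction training. The prefrontal tissue of both hemispheres was collected 2 h later, so no untrained mouse enters the comparison. The labels speak of a Zn diet, and what it contained is not known here. Whole tissue was read, so fewer cells of a type and less RNA per cell cannot be told apart in any value below.

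Sodium channels start and carry the action potential. Their pore is the alpha subunit (the Scn genes ending in a), and beta subunits (ending in b) set its gating and place it in the membrane. Calcium channels turn the voltage change into calcium entry, which triggers transmitter release at terminals and signals to the nucleus in cell bodies. Their pore is an alpha1 subunit (Cacna1 genes), carried to the surface by alpha2delta (Cacna2d) and beta (Cacnb) subunits. The gamma family (Cacng) holds a subunit of muscle channels and several proteins that mainly escort AMPA-type glutamate receptors.

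The 6 arrays had medians over all probe sets of 4.46 to 4.52 log2 units. ZnR mouse 3 and control mouse 1 stood apart on the array's controls for 18S ribosomal RNA, with means of 8.44 and 9.09 log2 units, while the others lay between 10.9 and 12.4. Of the cell type markers, those of excitatory cortical neurons were present in every mouse, and those of striatal medium spiny neurons, which belong to the neighbouring striatum, were present in every mouse too. Among the lists not taken up below, no marker passed among 5 measured each of oligodendrocytes, microglia, endothelial cells and mural cells and 3 of leptomeningeal fibroblasts. Their median log2 differences were 0.36 for oligodendrocytes, -0.11 for microglia, 0.13 for endothelial cells, 0.16 for mural cells and 0.88 for leptomeningeal fibroblasts.

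Cacna2d1, the gene of an alpha2delta subunit that gabapentin binds, fell in ZnR mice, by 1.49-fold and 2.04-fold on 2 of its 4 tested probe sets, and the other two were lower on average (n = 3 mice per diet throughout). Cacng4, a gamma family gene, rose in ZnR mice by 1.73-fold on 1 probe set and measured 1.48-fold higher on the other. No sodium channel probe set passed the test. Scn1a, Scn2a and Scn8a were lower on average on every probe set tested, with log2 differences between -0.59 and -0.16. No calcium channel alpha1 or beta gene passed either.

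Over the 52 tested probe sets, 1 rose, 2 fell and 49 did not pass (limma, adjusted p under 0.05 over all probe sets of the array). That is 5.77% of them, against 1.47% of the 25381 probe sets tested on the array, of which 0.461% rose and 1.01% fell. With 1 probe set per gene, 2 of 23 genes passed, or 8.70%, against 4.24% of 11749 genes, and 47.8% had an unadjusted p under 0.05, against 21.2%. The mice of the diets did not overlap in 28 of the 52 probe sets, or 53.8%, against 23.7% of all probe sets. ZnR mice lay below all control mice in 17 of them (32.7%, against 10.6% overall) and above in 11 (21.2%, against 13.1%). An unadjusted p under 0.05 was reached by 24 probe sets, 17 lower and 7 higher, or 46.2%, against 17.0% overall (7.90% lower and 9.06% higher). Probe sets of 1 gene read the same transcripts, so these are not counts of independent genes. The median log2 difference was -0.10 over the 52 probe sets and 0.015 over all probe sets tested. On average 34 of the 52 (65.4%) were lower, against 46.4% of all probe sets. This tilt depends on the unit counted: with 1 probe set per gene 11 genes were lower and 12 higher, with a median of 0.0027, and with the mean over a gene's probe sets 13 were lower and 10 higher, with a median of -0.019. Alternative fits named below called more of the array too: 7.89% with array weights, 4.81% with gene means, 3.61% with a variance prior that follows the level, 3.04% with a minimum of 6 and 2.17% with a block described below.

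**Figure D1:**
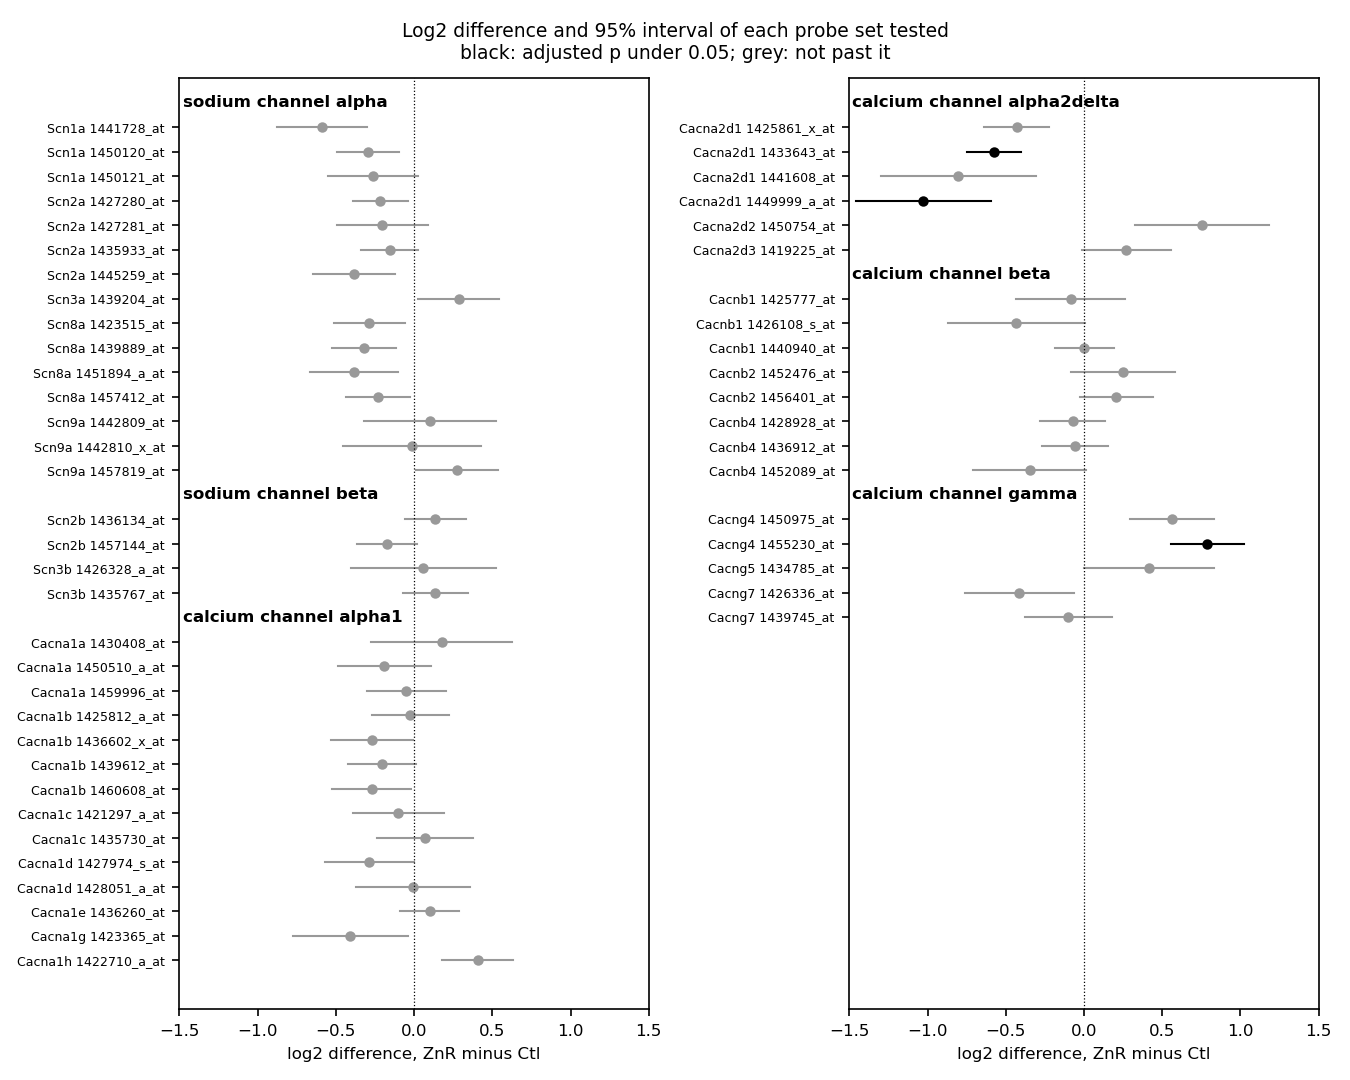
Log2 difference, ZnR minus Ctl (horizontal axis, log2 units), of the 52 tested probe sets, grouped by the subunit they encode. Dots are differences, lines 95% intervals from the fit, and the 3 black probe sets passed the threshold: 2 of Cacna2d1 on the left of 0 and 1 of Cacng4 on the right.

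Of 6 tested alpha2delta probe sets 2 fell, against 1.01% of the array, and 4 did not pass. Both that fell belong to Cacna2d1. Its probe set 1433643_at measured 10.95, 10.95 and 10.95 log2 units in ZnR mice 3, 7 and 11, against 11.54, 11.50 and 11.53 in control mice 1, 5 and 9. The ZnR mice were nearly equal to each other, with an SD of 0.0013, and all lay below the controls. The log2 difference was -0.58 ± 0.08 (SE), or 1.49-fold lower, with adjusted p = 0.023. Probe set 1449999_a_at measured 8.61, 8.76 and 8.05 in ZnR mice, against 9.68, 9.43 and 9.39 in controls. It fell 2.04-fold (-1.03 ± 0.19 SE, adjusted p = 0.0496), and ZnR mouse 11 was the lowest of its group. The other tested probe sets went the same way without passing. For 1441608_at the values were 5.74, 6.01 and 5.36 in ZnR mice and 6.14, 6.57 and 6.81 in controls (-0.80 ± 0.21 SE, adjusted p = 0.115). For 1425861_x_at they were 6.56, 6.56 and 6.55 in ZnR mice and 7.10, 6.87 and 7.0 in controls (-0.43 ± 0.09 SE, adjusted p = 0.064). The fifth probe set, 1440397_at, exceeded a value of 4 in 1 control mouse only and was not tested: it measured 3.04, 3.29 and 3.18 in ZnR mice, against 4.33, 3.94 and 3.92 in controls. All 4 tested probe sets of Cacna2d1 thus put every ZnR mouse below every control mouse, with differences from -0.43 to -1.03 that depend on the probe set. The fifth was too dim to count beside them.

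The fall of Cacna2d1 did not pass in any fit that left out 1 mouse. For 1433643_at the difference then ran from -0.59 to -0.57, with adjusted p from 0.0575 to 0.101, and for 1449999_a_at from -1.17 to -0.82, with adjusted p from 0.0631 to 0.147. The call for 1449999_a_at was also lost with a robust variance prior (adjusted p = 0.053). Over the whole array the number past the threshold dropped to between 1 and 109 in the fits that left out 1 mouse. Over all alternatives that covered them, 1433643_at passed in 11 of 18 and 1449999_a_at in 8 of 16. The 11 include the fit of the mean over the gene's probe sets (-0.71, adjusted p = 0.0108).

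Markers of excitatory cortical neurons were lower in the same arrays. Of 7 listed, 6 were measured, all lower in ZnR mice on average and 5 past the threshold, against 1.01% of the array. Their summed level, on the linear scale, was 2952 to 3609 in ZnR mice, against 6593 to 7088 in control mice. The 1 that did not pass, Emx1, measured 4.04, 3.99 and 3.99 in ZnR mice, against 4.33, 4.41 and 4.52 in controls. It was kept through the diet in which it was higher, so its direction carries little weight. The 8 interneuron markers were split, 4 higher and 4 lower on average, with 1 fall. Higher were Gad1 (0.12), Gad2 (0.39), Slc32a1 (0.56) and Lhx6 (0.36). Lower were Pvalb (-0.70), Sst (-0.13), Npy (-0.44) and Vip (-1.0), and Vip was the 1 that passed. The 8 summed to 23296 to 24717 in ZnR mice, against 21287 to 24228 in controls. Gad1, the brightest, weighs most in that sum, so it does not speak for the lower markers. The part of either cell type in the result for Cacna2d1 was not tested.

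The other alpha2delta genes did not share this direction. Cacna2d2 (1450754_at), known from inhibitory neurons such as cerebellar Purkinje cells, measured 10.59, 10.78 and 10.82 in ZnR mice, against 9.56, 10.07 and 10.30 in controls. The diets did not overlap, and control mouse 1 was far below the other controls. The difference of 0.75 ± 0.18 (SE, 1.69-fold higher, 95% interval 0.32 to 1.18) did not pass, with adjusted p = 0.0981. It was 0.54 without control mouse 1. It passed with the level-following prior (adjusted p = 0.0341) and with array weights (adjusted p = 0.0258). Cacna2d3 (1419225_at) measured 10.57 to 10.72 in ZnR mice and 10.13 to 10.55 in controls, a difference of 0.27 with adjusted p = 0.317. The 3 probe sets of Cacna2d4, a gene known from the retina, and the other 2 of Cacna2d2 exceeded 4 in too few mice to be tested. Whether the response of Cacna2d1 differs from that of Cacna2d2 was not tested.

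The sequences just before the starts of Cacna2d1 and Cacna2d2 are shown because these family members had the largest differences of their class, in opposite directions. They are the 250 bases upstream of the RefSeq start, build GRCm38.p6, plus strand, at chr5:15934441-15934690 for Cacna2d1 and chr9:107399630-107399879 for Cacna2d2. Capitals mark GGGCGG (the GC box) and TGCGCNC (1 form of the metal response element core), searched on both strands.
Cacna2d1: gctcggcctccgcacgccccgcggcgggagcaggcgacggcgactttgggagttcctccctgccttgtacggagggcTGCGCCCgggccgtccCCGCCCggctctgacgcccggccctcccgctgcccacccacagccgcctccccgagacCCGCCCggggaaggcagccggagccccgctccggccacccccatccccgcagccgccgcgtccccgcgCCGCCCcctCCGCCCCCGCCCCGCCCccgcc
Cacna2d2: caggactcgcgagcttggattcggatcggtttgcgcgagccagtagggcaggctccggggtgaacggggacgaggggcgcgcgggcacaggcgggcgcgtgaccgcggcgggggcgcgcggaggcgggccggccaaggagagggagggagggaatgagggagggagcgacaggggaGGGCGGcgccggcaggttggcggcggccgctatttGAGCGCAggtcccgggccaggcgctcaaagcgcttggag
The Cacna2d1 sequence was 82.4% G or C and held 6 GC boxes, most of them close to the gene's start, and 1 TGCGCNC. That of Cacna2d2 was 74.4% G or C and held 1 of each. A GC box was present in 32.7% and TGCGCNC in 12.5% of the 32851 upstream windows of this length in the table, whose median G and C content was 52.4%. Searched likewise, the other core form TGCACNC had no match in either window, nor did TGACGTCA (the cAMP response element), the AP-1 site TGANTCA, the TATA box TATAAA or the E-boxes with CAGATG or with the palindrome CAGCTG. These matches are letters in a window, not binding sites. Of the 31 genes, 23 had an entry in the RefSeq promoter table, with 33 windows in all. A GC box was present in 14 of the 33 and TGCGCNC in 4. The window of Cacna2d3, not shown, held 4 GC boxes and no TGCGCNC.

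Of 5 tested gamma family probe sets 1 rose, against 0.461% of the array. It belongs to Cacng4, whose product is an escort of AMPA receptors. Probe set 1455230_at measured 8.56, 8.36 and 8.35 in ZnR mice, against 7.74, 7.62 and 7.53 in controls. Every ZnR mouse lay above every control mouse, by more than the range within either diet, and the log2 difference was 0.79 ± 0.10 (SE), with adjusted p = 0.0214. Probe set 1450975_at measured 8.48, 8.35 and 8.72 in ZnR mice, against 8.05, 7.94 and 7.87 in controls (0.56 ± 0.12 SE, adjusted p = 0.0631). The diets did not overlap there either. The call held without control mouse 1 (adjusted p = 0.0402) and was lost without each of the other mice, with differences from 0.72 to 0.84 and adjusted p up to 0.0983.

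While 0.461% of all tested probe sets rose past the threshold, several lists of cell type markers were higher in the arrays with more Cacng4. Those of striatal medium spiny neurons were higher on average in all 8 measured of 10, with 2 past the threshold. They summed to 27082 to 30946 in ZnR mice, against 19396 to 24252 in controls. The 5 markers of oligodendrocyte precursors were all higher on average, none past the threshold, and summed to 3551 to 4464 in ZnR mice, against 3038 to 3237 in controls. Those of choroid plexus and ependyma were higher on average in all 6 measured of 7, with 2 past the threshold and Folr1 too dim to test. Of the 6, Ttr, Tmem212 and Foxj1 lay below 4 in control mouse 1, and Ttr also in control mouse 9 and ZnR mouse 7. The 6 summed to 471 to 562 in ZnR mice, against 132 to 263 in controls. The 6 astrocyte markers were all higher on average too, with a median log2 difference of 0.20 and 1 past the threshold. They summed to 28298 to 29431 in ZnR mice, against 25391 to 28460 in controls, which overlap. The part of these cell types in the result for Cacng4 was not tested.

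**Figure D2:**
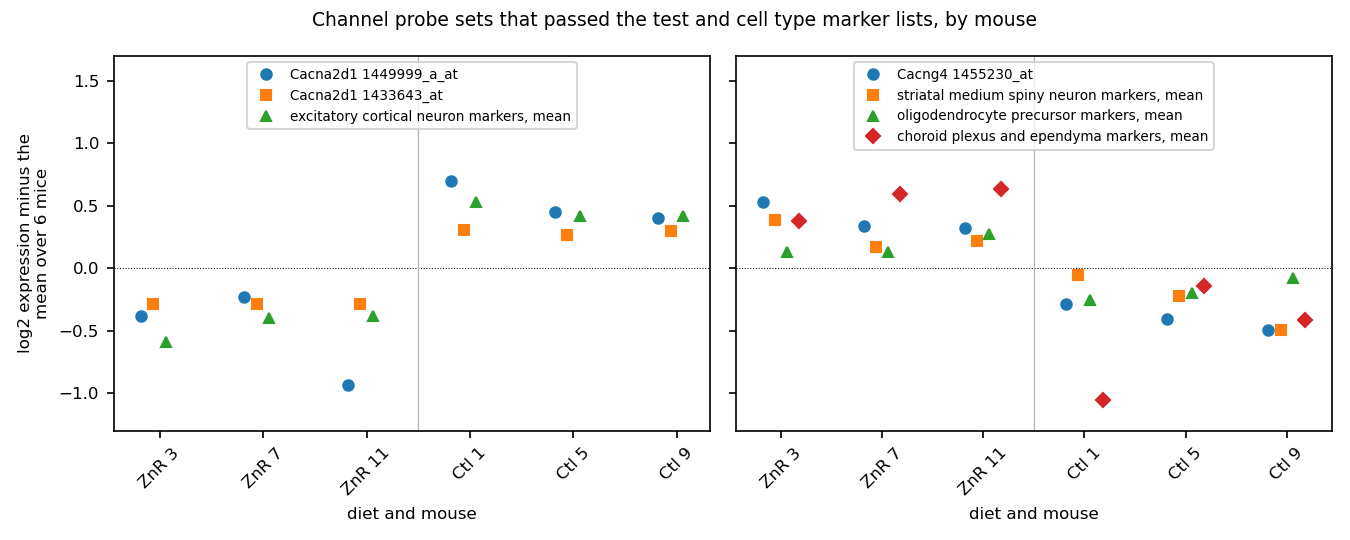
Log2 expression minus the mean over the 6 mice (vertical axis, log2 units) by mouse, with ZnR mice left and control mice right of the grey line. The left panel sets 2 Cacna2d1 probe sets beside the mean of the excitatory neuron markers, with every ZnR mouse below every control mouse. The right panel sets Cacng4 beside the means of 3 of the other marker lists, with every ZnR mouse above every control mouse.

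Cacng5, a further AMPA receptor escort and the next protein-coding gene after Cacng4 on chromosome 11, measured 7.55, 7.92 and 8.08 in ZnR mice, against 7.15, 7.47 and 7.69 in controls. The diets overlapped, and the difference of 0.42 ± 0.18 (SE) had adjusted p = 0.292. Cacng7, another AMPA receptor escort, went the other way on average. Its probe set 1426336_at measured 6.07, 5.87 and 6.43 in ZnR mice, against 6.49, 6.45 and 6.67 in controls (-0.41 ± 0.15 SE, adjusted p = 0.217), and 1439745_at differed by -0.10. Cacng1, a skeletal muscle channel subunit, and Cacng6 did not reach a value of 4 on any probe set.

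**Figure D3:**
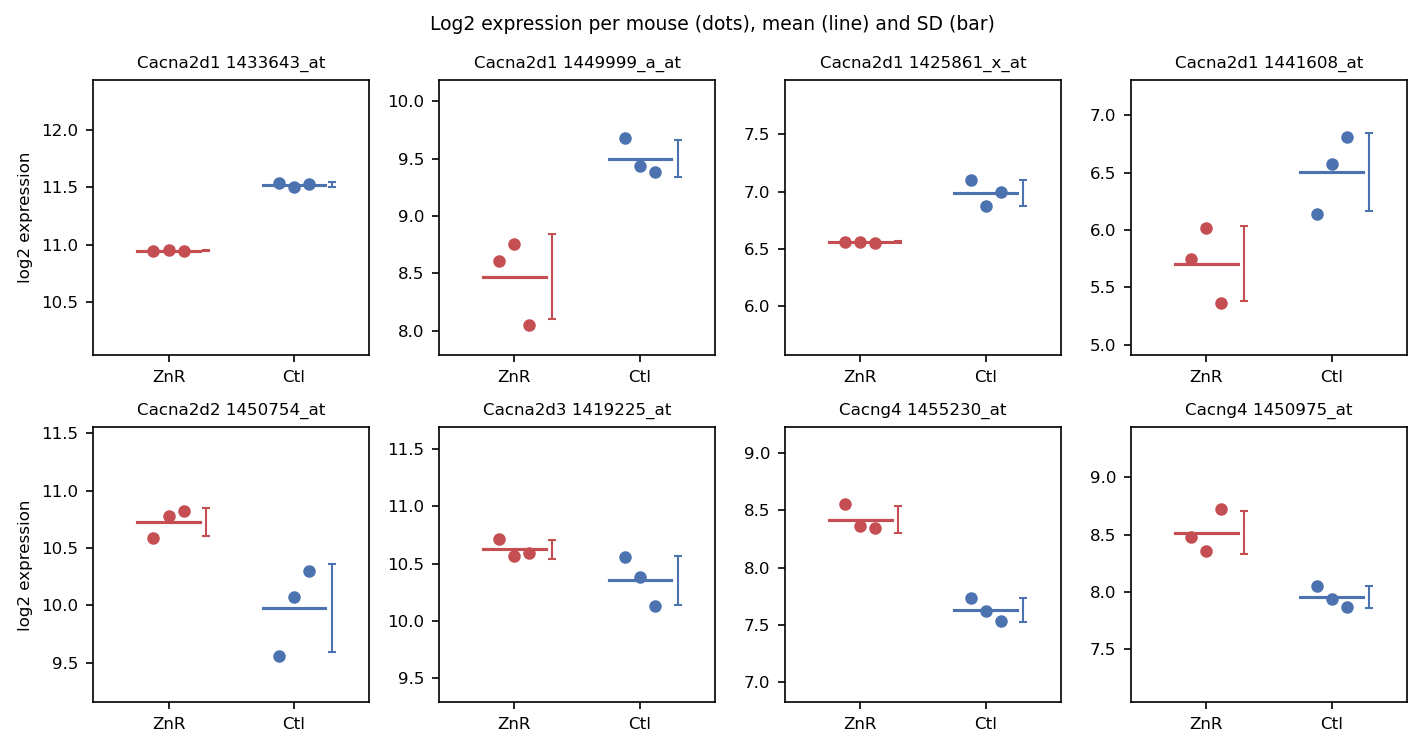
Log2 expression (vertical axis) of 8 probe sets of Cacna2d1, Cacna2d2, Cacna2d3 and Cacng4, with the ZnR mice left and the control mice right in each panel. Dots are mice, lines means and bars SDs, and each panel spans the same range of log2 units. The 4 Cacna2d1 panels have every ZnR mouse below the controls, and the other panels have them above.

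The pore-forming sodium channel genes of the brain differed in direction on average, and none passed. Scn1a, whose channel is a main one of fast-spiking inhibitory neurons, was lower on average on all 3 probe sets. On 1441728_at it measured 5.70, 5.87 and 5.46 in ZnR mice, against 6.28, 6.14 and 6.37 in controls. These values did not overlap, but the difference of -0.59 ± 0.12 (SE, 1.5-fold lower) had adjusted p = 0.0672. It passed with a minimum of 6 (adjusted p = 0.0493), with array weights (adjusted p = 0.0304) and as the mean over the gene's probe sets (-0.38, adjusted p = 0.0442). On 1450120_at it measured 8.96, 8.92 and 8.79 in ZnR mice, against 9.17, 9.22 and 9.15 in controls (-0.29 ± 0.08 SE, adjusted p = 0.140). The remaining probe set differed by -0.26 and overlapped.

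Scn8a, whose channel sits at the site where action potentials start, was below the controls in every ZnR mouse on each of its 4 tested probe sets. On 1439889_at it measured 8.33, 8.37 and 8.49 in ZnR mice, against 8.71, 8.79 and 8.64 in controls (-0.32 ± 0.09 SE, adjusted p = 0.123). The 4 differences lay between -0.38 and -0.23, with adjusted p from 0.123 to 0.244. Scn2a, the channel of excitatory axons early in life and of their dendrites later, had differences from -0.39 to -0.16 on its 4 probe sets. Its ZnR mice lay below the controls on 3 of the 4, and adjusted p ran from 0.141 to 0.468.

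Scn3a, best known from the embryonic brain, measured 9.63, 9.83 and 9.66 in ZnR mice, against 9.52, 9.51 and 9.24 in controls (0.28 ± 0.11 SE, adjusted p = 0.250). It lies next to Scn2a on chromosome 2, and the 2 genes differed by diet in opposite directions on average. Scn9a, best known from sensory neurons, was close to the level for testing. Its 3 tested probe sets measured 3.84 to 5.39 over all mice, with differences of -0.01, 0.10 and 0.27. The sensory neuron channels Scn10a and Scn11a, and Scn7a, whose product senses salt, had no probe set above 4 in enough mice to be tested.

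Over the sodium channel genes, 0 of 19 tested probe sets passed in limma, against 1.47% on the array, and 10 had an unadjusted p under 0.05, 8 lower and 2 higher. Over the array the shares with such a p were 17.0% in all, 7.90% lower and 9.06% higher. The 95% interval of the difference was -0.39 to -0.04 for Scn2a (1427280_at) and -0.51 to -0.06 for Scn8a (1423515_at). For Scn2a it was -0.65 to -0.12 on 1445259_at, but it included 0 on 1427281_at (-0.49 to 0.09) and 1435933_at (-0.34 to 0.03). These intervals are not adjusted for the number of probe sets tested. With array weights, which called 7.89% of the array, 4 of the 19 passed, all lower, 2 of Scn1a and 1 each of Scn2a and Scn8a. The excitatory neuron markers given beside Cacna2d1 were lower in the same arrays, and their part in the sodium channel values was not tested.

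**Figure D4:**
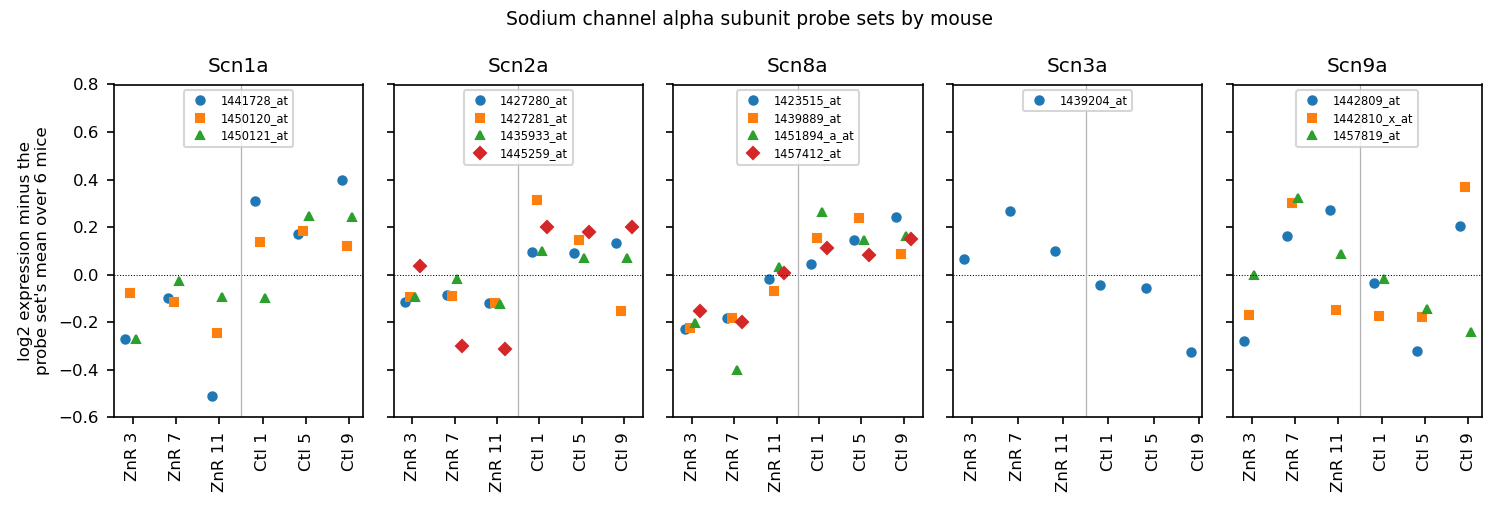
Log2 expression minus the probe set's mean over the 6 mice (vertical axis, log2 units) for the tested probe sets of 5 sodium channel alpha genes, with ZnR mice left and control mice right of the grey line in each panel. Each marker shape is 1 probe set. All 4 Scn8a probe sets have ZnR mice below controls, Scn3a has them above, and Scn9a shows no common direction.

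None of the sodium channel beta genes passed. Scn2b measured 10.91, 10.77 and 10.86 in ZnR mice, against 10.76, 10.72 and 10.66 in controls on 1436134_at (0.13 ± 0.08 SE, adjusted p = 0.471). Its probe set 1457144_at went the other way, with 4.93, 5.07 and 4.93 in ZnR mice, against 5.16, 5.16 and 5.12 in controls (-0.17 ± 0.08 SE, adjusted p = 0.345), so the direction for Scn2b depends on the probe set. Scn3b measured 11.012, 11.028 and 11.005 in ZnR mice, against 10.983, 10.902 and 10.752 in controls on 1435767_at (0.14 ± 0.09 SE, adjusted p = 0.500). The 4 tested probe sets of these genes had differences between -0.17 and 0.14. None passed in limma, and none had an unadjusted p under 0.05.

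None of 14 tested alpha1 probe sets passed in limma, and 5 had an unadjusted p under 0.05, 4 lower and 1 higher, against 17.0% of the array, 7.90% lower and 9.06% higher. Cacna1h, the pore of a low-voltage T-type channel, measured 8.36, 8.33 and 8.28 in ZnR mice, against 8.04, 7.76 and 7.95 in controls. The diets did not overlap, and the difference of 0.41 ± 0.10 (SE, 1.33-fold higher) had adjusted p = 0.0938. It passed with array weights (0.53, adjusted p = 0.0169) and in a fit of the mean over each gene's probe sets (adjusted p = 0.0458). Cacna1g, the pore of another T-type channel, differed by the same amount downwards. It measured 6.83, 7.13 and 7.43 in ZnR mice, against 7.38, 7.59 and 7.64 in controls (-0.41 ± 0.16 SE, adjusted p = 0.251), and ZnR mouse 11 lay within the control range.

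Among the pores of transmitter release, Cacna1b (N-type) was lower on average on its 4 probe sets, by -0.27 to -0.02. On 1460608_at it measured 9.10, 9.38 and 9.39 in ZnR mice, against 9.55, 9.48 and 9.65 in controls (-0.27 ± 0.11 SE, adjusted p = 0.266). Cacna1a (P/Q-type) differed by -0.19, -0.05 and 0.18 on its 3 tested probe sets, so no direction can be given. Cacna1e (R-type) measured 11.34 to 11.47 in ZnR mice and 11.28 to 11.35 in controls, a difference of 0.10 with a 95% interval of -0.09 to 0.29.

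None of the L-type pores, which couple activity to gene expression, passed. Cacna1c differed by -0.10 and 0.07 on its probe sets, with 95% intervals of -0.39 to 0.19 and -0.24 to 0.38. Cacna1d differed by -0.29 and -0.01, with adjusted p of 0.294 and 0.992. Cacna1f, known from the retina, and Cacna1s, the skeletal muscle pore, did not reach a value of 4.

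The beta subunit genes gave 0 of 8 tested probe sets past the threshold in limma, none had an unadjusted p under 0.05, and none passed under any alternative run. Cacnb2, a main beta subunit of heart channels that the brain also uses, was the one with diets apart on both probe sets. On 1456401_at it measured 8.43, 8.28 and 8.35 in ZnR mice, against 7.98, 8.24 and 8.22 in controls (0.21 ± 0.10 SE, adjusted p = 0.350). Cacnb4, a main beta subunit of brain channels, measured 10.07, 9.70 and 9.83 in ZnR mice, against 10.17, 10.49 and 9.97 in controls on 1452089_at (-0.35 ± 0.15 SE, adjusted p = 0.309). Its other probe sets differed by -0.07 and -0.06, with 95% intervals within -0.28 to 0.15. Cacnb1, the beta subunit of skeletal muscle channels, measured 5.33, 5.10 and 5.77 in ZnR mice, against 5.66, 5.73 and 6.10 in controls on 1426108_s_at (-0.43 ± 0.19 SE, adjusted p = 0.303). Its probe set 1440940_at differed by 0.0027, and 1425777_at by -0.09.

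Agreement between probe sets was uneven. Of the 16 genes with at least 2 tested probe sets, 8 were lower on average on all of them, 3 were higher on all of them (Cacnb2, Cacng4 and Scn3b) and 5 were mixed (Scn9a, Scn2b, Cacna1a, Cacna1c and Cacnb1). The 8 were Scn1a, Scn2a, Scn8a, Cacna1b, Cacna1d, Cacna2d1, Cacnb4 and Cacng7. The spread between mice of a diet was alike in both, with a median SD of 0.14 log2 units in ZnR mice and 0.11 in controls, against 0.13 in each over all probe sets tested. It exceeded 0.3 in 6 probe sets in ZnR mice and 3 in controls, among them Cacna2d1 in both.

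Within ZnR mouse 3 and control mouse 1, the pair that stood apart on 18S, the differences were -0.59 and -1.07 for the Cacna2d1 probe sets past the threshold and 0.82 for that of Cacng4. Between the other mice they were -0.57, -1.0 and 0.78. With the pair as a block 4 of the 52 probe sets passed, these 3 and Cacna2d2 (adjusted p = 0.0356). Without the pair 0 passed in limma, in a fit with fewer mice.

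Of 40 genes listed as channel partners or calcium handling genes, 32 were measured by 75 probe sets. Of these, 5 fell, 0 rose and 70 did not pass, which is 6.67% called, against 1.47% of the array. The list was drawn up with earlier results of these data known, so its share is not independent of them. The median difference was -0.026. Stac2, which encodes an adaptor of L-type channels, fell, with a log2 difference of -0.66 ± 0.10 (SE, adjusted p = 0.03). It measured 6.73, 6.92 and 6.66 in ZnR mice, against 7.36, 7.45 and 7.48 in controls, with no overlap. The others were Cabp1, a calcium sensor that modulates calcium channels (-1.45, adjusted p = 0.00624), both probe sets of Stx1a, a syntaxin that binds release-site channels (-0.99 and -0.86), and 1 of Rims1, which tethers channels at release sites (-0.59). Next by p were the other Rims1 probe set (-0.48, adjusted p = 0.0513), 1 of Ank2 (-0.51, adjusted p = 0.0545) and 1 of Syt1 (-0.41, adjusted p = 0.0715). That of Ank2 was dim, at 4.63 to 5.32 over all mice. The brighter Ank2 probe sets 1434264_at and 1434265_s_at differed by -0.10 each and 1459317_at by -0.30, all with overlap. The other Syt1 probe sets differed by -0.29, -0.16 and -0.05. Fgf13, which binds sodium channel alpha subunits and was picked after its values were seen, measured -0.50 and -0.31 on its 2 probe sets, with adjusted p of 0.0897 and 0.123. Ank3, the anchor of sodium channels at the axon's start and picked likewise, stayed between 0.0025 and 0.07 on 5 of its 6 probe sets and measured -0.30 on the other. Among the higher partners, also picked after seeing their values, Ryr3, a calcium release channel of internal stores, measured 0.57, 0.56 and 0.66 on its 3 tested probe sets, with adjusted p from 0.137 to 0.275. Rem2, a small GTPase that inhibits calcium channels, measured 0.52 and 0.45, with adjusted p of 0.158 and 0.283.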

How the data were processed

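Log2 expression values per probe set were deposited by the authors, 1 column per mouse and none pooled. The submitters' processing notes list R 2.15.1 and GCRMA 2.28.0. GCRMA by default brings the probes of all arrays to a shared distribution, so a change of total RNA does not show, and it compresses low values. Labelling started from 500 ng of total RNA, per the labels. Genes were named from the platform annotation for probe sets with 1 symbol, and all 31 member genes matched a RefSeq gene table (GRCm38.p6) by Entrez identifier. That table gave names and neighbours only.

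Probe sets above 4 on at least 3 arrays (25381, or 56.4% without the 64 array controls) were fitted with lmFit and eBayes in limma 3.58.1 (R 4.3.3). The fit was 2-sided, ZnR minus Ctl, without covariates, since no label pairs mice across the diets. P-values were adjusted by Benjamini-Hochberg over all these probe sets, with a threshold of 0.05. Errors of differences are moderated standard errors, and folds are 2 raised to the difference. Per the titles each array came from a separate mouse, and their number limits the precision. The fit was tested on simulated data with independent noise for each probe set, which does not cover effects shared across an array.

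Values in every mouse are given for probe sets past the threshold and for up to 3 others of each subunit class with the smallest p. Marker lists use 1 probe set per gene, summed on the linear scale, and the partner list counts every tested probe set. The members, lists, tests and naming rule were chosen with earlier results of these data known. Alternatives covered the level filter, normalization, variance prior, array weights, the unit counted and each mouse left out. The 18S alternatives were chosen after seeing the data. Promoter windows and plots used Python 3.11.15, pandas 2.3.3 and matplotlib 3.10.9.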

Additional observations from a re-analysis of the deposited data

How the results depend on the processing

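The array-wide count of 373 was 2003 with array weights, 916 with a variance prior that follows the level, 565 with the mean over a gene's probe sets, 1 to 109 without 1 mouse and 1 without the low-18S pair. The count of 3 channel probe sets was 12 with array weights, 6 with a minimum of 6, 5 with the level-following prior, 0 to 1 without 1 mouse and 0 without the pair (1 called without control mouse 1, none without any other). With no level filter it was 4, since a further Cacna2d1 probe set passed. The median over channel probe sets (-0.10) was -0.049 with no filter, -0.17 and -0.20 with minimums of 5 and 6, -0.019 with gene means, 0.0027 with 1 probe set per gene and -0.16 to -0.099 without 1 mouse, so its sign depends on the unit counted.

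The 3 called probe sets kept their direction in every alternative that tested them. Those that changed sign had not passed. With gene means Cacna1c measured -0.015, Cacnb1 -0.17, Scn2b -0.019 and Scn9a 0.12. With array weights Cacnb4 1428928_at measured 0.024, Cacng7 1439745_at 0.016 and Scn9a 1442810_x_at 0.11. Cacnb1 1440940_at measured -0.0075 with median centring and -0.0024 without the pair. Leaving out 1 mouse gave -0.14 to 0.21 for Scn3b 1426328_a_at, -0.0083 to 0.22 for Cacna1c 1435730_at, -0.021 to 0.039 for Cacnb1 1440940_at and -0.17 to 0.069 for 1425777_at. It gave -0.17 to 0.17 for Scn9a 1442810_x_at and -0.032 to 0.27 for 1442809_at. It gave -0.10 to 0.072 for Cacna1b 1425812_a_at, -0.10 to 0.15 for Cacna1d 1428051_a_at and -0.14 to 0.029 for Cacna1a 1459996_at. The cause was not tested. No paired fit was run, since no label pairs mice across the diets. The 18S mean rose with mouse number in both diets, from 8.44 to 11.5 in ZnR mice and from 9.09 to 12.4 in controls. An effect of that order was not tested. The block of the low-18S mice groups arrays by a control value seen in the data, and pairs no mice by their labels. Values below about 4 are too dim to compare.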
